A study of Mus musculus with 4 samples.

Results

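Notch1, Egfl7, Ncstn, Psen2 and Hes6 are genes of the Notch pathway, taken by symbol from the expression table of sorted mouse long-term haematopoietic stem cells. All 5 were present among 4167 genes with complete lines, and all 5 belonged to the 1928 genes with a value other than 0. These cells (LT-HSCs) renew themselves in the marrow and supply every blood lineage. Flow cytometry was used to sort them from tibia and femur of mice labelled ATF4 KO and of wild-type (WT) mice, with 2 libraries of each genotype. ATF4 is a stress-induced transcription factor, made when the integrated stress response is active. The series asks whether adult LT-HSCs that lack ATF4 decline as they do with age. Polyadenylated RNA was sequenced after a preparation customised from Smart-seq2, which amplifies RNA of few cells. Strain, age, sex, the allele, any Cre driver and the number of animals per library are not given in the labels. The p-values therefore rest on the spread between these libraries, which may be technical. For genes with no read in either ATF4 KO library, as for Notch1 and Psen2, the ATF4 KO spread is set by how the deposited values were computed.

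Notch receptors are cut at the cell surface after they bind a ligand on a neighbouring cell. Gamma-secretase, a protease within the membrane, then releases the intracellular domain, which enters the nucleus and joins RBPJ to switch on targets such as the HES repressors. Presenilin 2, made from Psen2, is a catalytic subunit of gamma-secretase and nicastrin, made from Ncstn, is its large glycosylated subunit. EGFL7 is a protein secreted mainly by endothelial cells that can bind Notch receptors. HES6 is a member of the HES family that, in mice, can counteract HES1. NOTCH1 is known for its part in the emergence of stem cells in the embryo and in the commitment of progenitors to the T lineage.

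The ATF4 KO libraries were much shallower than the WT libraries. Over the genes whose reads could be recovered from the deposited values, ATF4 KO 1 held 38578 reads on 336 genes and ATF4 KO 2 held 47510 reads on 351 genes, against 1010054 reads on 1728 genes in WT 1 and 827147 on 1665 in WT 2. The 10 most abundant genes took 55.1% and 53.3% of the ATF4 KO reads, against 13.2% and 14.1% of the WT reads. The scale between genotypes depends on how depth is measured: read totals of ATF4 KO 1 and 2 were 3.82% and 4.70% of WT 1, whereas their size factors, the depth terms within the deposited values, were 0.166% and 0.171% of it. Atf4 lies on chromosome 15 and was not analysed here, so the genotype labels could not be checked on the targeted gene. The lines analysed matched chromosome 1 and the start of chromosome 2, 7.4% of the annotated genes. The read totals are sums over this part alone, without the genes whose reads could not be recovered.

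Egfl7 spans chr2:26580014-26593120 on the plus strand of GRCm38 and is the host gene of miR-126, a microRNA known to keep haematopoietic stem cells quiescent. Mature sequences are shown because the hairpins Mir126a and Mir126b lie within the Egfl7 locus. They overlap exons of some of its 19 annotated transcripts, which need not be exons of the main mRNA. The sequence of miR-126a-5p was not available. Capitals mark the seed (bases 2 to 8), and no seed is shared among the sequences shown.
miR-126a-3p: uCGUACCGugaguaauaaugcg
miR-126b-3p: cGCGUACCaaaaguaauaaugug
miR-126b-5p: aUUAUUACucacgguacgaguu
Mir126a lies on the strand of Egfl7 and Mir126b on the opposite strand. Both hairpins were listed at 0 in all 4 libraries, which were made from polyadenylated RNA, so the microRNA itself was not measured.

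Ncstn spans chr1:172066013-172082795 on the minus strand, and its start overlaps that of Copa, a coat protein subunit of Golgi vesicles, on the plus strand. The overlap is shown because exons of both genes share 195 bases, of which 96 (capitals) fall into the RefSeq promoter window of Ncstn, chr1:172082700-172082999, minus strand.
Ncstn promoter window: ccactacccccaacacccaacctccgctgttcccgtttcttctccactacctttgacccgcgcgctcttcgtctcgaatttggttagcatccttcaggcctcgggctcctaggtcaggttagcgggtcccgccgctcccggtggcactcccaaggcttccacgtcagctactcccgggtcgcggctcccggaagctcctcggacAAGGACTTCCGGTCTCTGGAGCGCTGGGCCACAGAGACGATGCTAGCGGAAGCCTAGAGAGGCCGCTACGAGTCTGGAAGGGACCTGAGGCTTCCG
Reads from these bases cannot be assigned to either gene without strand, and the labels do not say whether the libraries kept it. Copa had 3 and 1 reads in ATF4 KO, against 4524 and 3705 in WT, so its ATF4 KO reads were far fewer than the 68 of Ncstn in ATF4 KO 1.

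Notch1 spans chr2:26457903-26516663, Psen2 chr1:180227004-180263438 and Hes6 chr1:91411483-91414038, all on the minus strand. Exons of Notch1 overlap the antisense genes 0610009E02Rik by 1068 bases and Gm13568 by 414. 0610009E02Rik had no ATF4 KO read, against 29 and 17 reads in WT, while Gm13568 was listed at 0. Exons of Egfl7 overlap Gm20532, listed at 0, by 264 bases and Agpat2, on the opposite strand, by 64. Agpat2, an enzyme of phosphatidic acid synthesis, had no ATF4 KO read, against 406 and 362 reads in WT. Psen2 shares no exon base with the antisense gene Gm31728 that overlaps it, and Hes6 overlaps no other gene. Reads of these overlaps are uncertain in the same way.

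The promoters were searched for 3 short motifs on both strands, in windows from 250 bases before to 50 after each RefSeq start. The C/EBP-ATF composite element, TGATGNAA, which ATF4 binds with a C/EBP partner, was in none of the 9 windows of the 5 genes and in 3.97% of all 32851 windows. The RBPJ site GTGGGAA was in 1 window, the second one of Psen2 (chr1:180245901-180246200, minus strand), and in 6.38% of all windows. This window is shown because it alone among the 9 holds the site of the nuclear partner of Notch. Capitals mark the RBPJ match, which begins at position -89 from the start and reads in the reverse orientation, and a match to the HES N-box, CACNAG, which begins at position 42.
Psen2 second promoter window: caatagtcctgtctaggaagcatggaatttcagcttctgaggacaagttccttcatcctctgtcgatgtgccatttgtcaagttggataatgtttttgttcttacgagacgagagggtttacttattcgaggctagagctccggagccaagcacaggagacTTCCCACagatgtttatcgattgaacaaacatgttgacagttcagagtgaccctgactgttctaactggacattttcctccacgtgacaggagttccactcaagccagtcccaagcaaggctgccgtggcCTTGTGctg
The N-box was in 42.5% of all windows. None of these matches was tested for binding.

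In WT, all 5 genes were read in both libraries, at levels that spread widely. Levels are given as normalised reads per kilobase of exon, that is, reads over the size factor and over the summed exon length. Hes6 was highest, at 51.6 and 62.5 in WT 1 and 2, with a mean of 57.0 ± 7.67 (SD, n = 2). Ncstn followed at 36.8 and 37.7, and Egfl7 at 27.4 and 29.1. These 3 genes exceeded 95.6%, 92.7% and 91.1% of the 1111 protein-coding genes with WT reads. Psen2 had 6.72 and 6.04 and Notch1 0.899 and 0.750, above 68.9% and 38.2% of those genes. The WT libraries did not overlap between any neighbours in this order. The order of Egfl7 and Ncstn turned round with the length of the longest transcript, at 54.3 ± 2.35 for Egfl7 and 49.1 ± 0.884 for Ncstn (SD, n = 2). Within gamma-secretase, the subunit nicastrin was thus read at a higher level per length than presenilin 2. ATF4 KO levels per length are left out, since Notch1 and Psen2 had no read there and Egfl7 and Hes6 had 2 each.

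**Figure D1:**
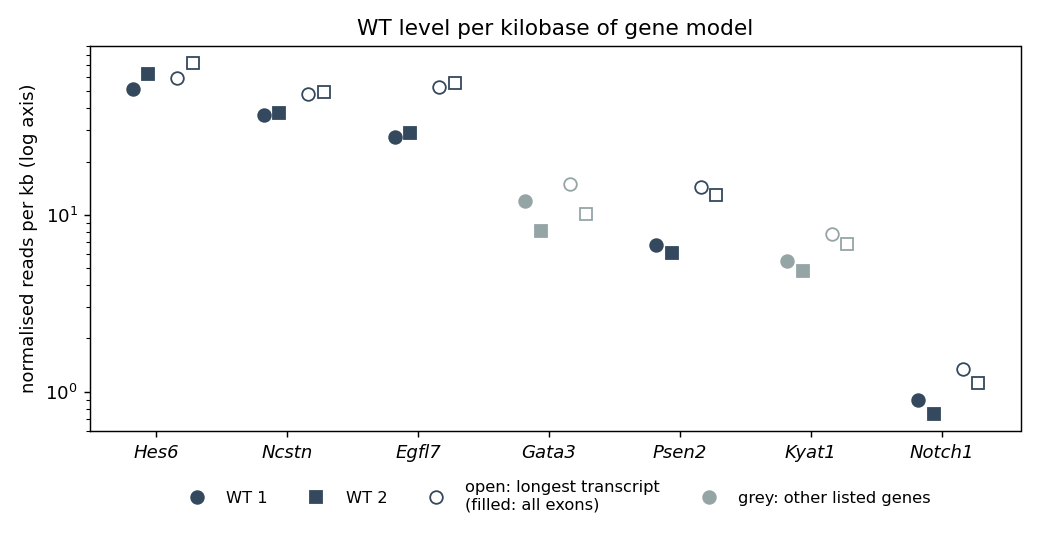
Normalised reads per kilobase (log axis) in WT 1 (circles) and WT 2 (squares), over all exons (filled) or the longest transcript (open). Hes6 lies at the top at 51.6 and 62.5 over all exons and Notch1 at the bottom at 0.899 and 0.750, with Gata3 and Kyat1 (grey) between.

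The receptor gene Notch1 had 0 and 0 reads in ATF4 KO, against 278 and 183 reads in WT. Its deposited log2 values were 2.67 and 2.65 in ATF4 KO, against 3.43 and 3.26 in WT. Psen2, a catalytic subunit, likewise had 0 and 0 reads in ATF4 KO, against 632 and 449 in WT, with log2 values of 2.84 and 2.81 in ATF4 KO and 4.66 and 4.54 in WT. For both genes the ATF4 KO pair lay within 0.1 of each other. With 0 reads, these values are set by the transform and not by reads of the gene. A gene with no read in ATF4 KO 1 or 2 is drawn towards 2.36 or 2.31.

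Egfl7 had 2 and 0 reads in ATF4 KO 1 and 2, against 2131 and 1789 in WT. The log2 values were 5.76 and 3.28 in ATF4 KO, against 6.52 and 6.60 in WT. Hes6 had the opposite pattern, with 0 and 2 reads in ATF4 KO, against 2027 and 1937 in WT. Its log2 values were 3.32 and 5.72 in ATF4 KO, against 6.45 and 6.70 in WT. In both genes 2 reads set the ATF4 KO libraries more than 2 log2 units apart.

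Ncstn was the only one of the 5 with more than 2 reads in an ATF4 KO library. It had 68 and 1 reads in ATF4 KO 1 and 2, against 3175 and 2572 in WT. The log2 values were 10.02 and 6.19 in ATF4 KO, against 7.39 and 7.41 in WT. One ATF4 KO library thus lay above both WT libraries and the other below both, so the groups overlap.

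**Figure D2:**
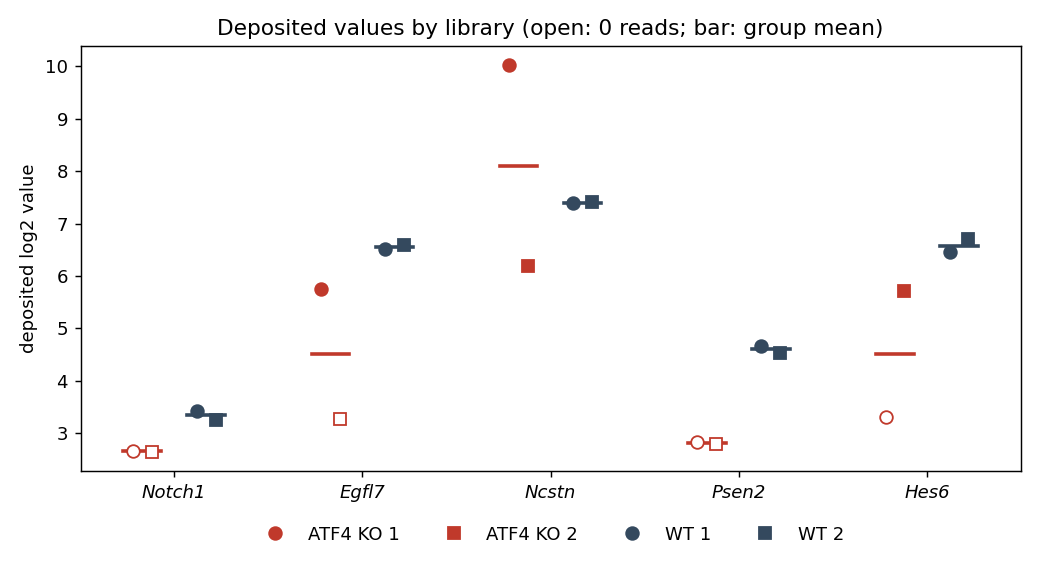
Deposited log2 values of the 5 genes in ATF4 KO (red, left) and WT (dark, right), with group means as bars and open symbols where the library held 0 reads. The WT pairs lie close together in every gene, while the ATF4 KO pair of Ncstn stands at 10.02 and 6.19.

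Whether so few ATF4 KO reads differ from the WT level was asked by setting them beside the reads that the WT level would give. With the size factors, Notch1 would give 0.422 and 0.436 reads in ATF4 KO 1 and 2, and Psen2 0.993 and 1.03. Over both libraries that is 0.858 and 2.02 reads, fewer than the 3 that a count of 0 allows, so a lower level of Notch1 or Psen2 was not detectable at this depth on this scale. Egfl7 and Hes6 would give 7.40 and 7.54 reads over both libraries, and each had 2. The ratio was 0.270 for Egfl7 (exact 95% Poisson interval 0.0327 to 0.977) and 0.265 for Hes6 (0.0321 to 0.958). Both upper bounds lie just below 1, and they cover counting error only. Other genes within 0.5 log2 units of the normalised WT reads of Egfl7 had a median of 3 reads over both ATF4 KO libraries. The median near Hes6 was also 3, so 2 reads were close to the usual number at that level. Ncstn had 69 reads where 10.8 were expected, a ratio of 6.38 (4.96 to 8.07), which was 0.256 (0.200 to 0.324) when scaled by library totals. Of the 69, ATF4 KO 1 held 68 where 5.32 were expected by the size factors and ATF4 KO 2 held 1 where 5.50 were, so the ratio lay above 1 in one library and below 1 in the other.

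Library totals, summed over the recovered genes only, were used as a further scale, which was chosen after the values were seen. By these totals 21.4 reads were expected for Notch1 and 50.3 for Psen2. Both then lay at least 7.12-fold and at least 16.8-fold lower than in WT, by the limit of 3 reads over both libraries. On that scale the ratios of Egfl7 and Hes6 were 0.0109 (0.00132 to 0.0393) and 0.0107 (0.00129 to 0.0386). Another scale used the yield over 411 other genes with WT log2 values from 3 to 6, which had 3534 ATF4 KO reads where 853.6 were expected, a ratio of 4.14. The 10 genes with most reads held 58.1% of those, and the ratio was 1.74 without them. The median ratio per gene was 0. Deposited WT values are shrunk towards the mean of the gene over all libraries. The choice of the 411 genes thus depended in part on the ATF4 KO reads that this ratio counts. Of the 411 genes, 224 lacked any ATF4 KO read, against 85.3 that counting error alone would give. ATF4 KO reads were thus spread more unevenly over genes than the Poisson intervals allow for. In bulk RNA, fewer cells of a type and less RNA per cell cannot be told apart.

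**Figure D3:**
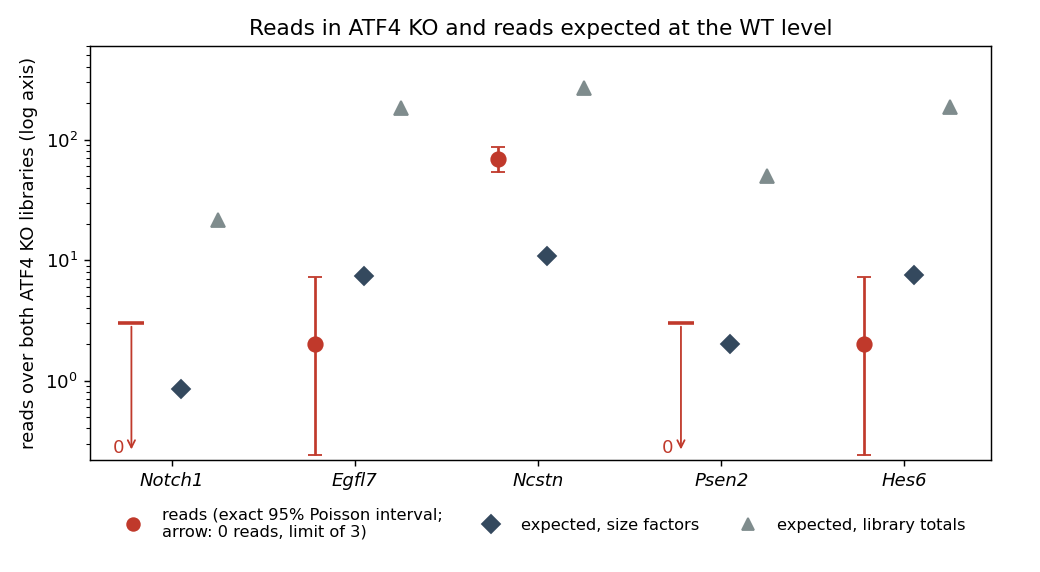
Reads over both ATF4 KO libraries (red, with exact 95% Poisson intervals or, for 0 reads, an arrow from the limit of 3) beside the reads expected at the WT level, on a log axis. Ncstn, with 69 reads, lies above the 10.8 expected by size factors (diamonds) and below the 269 expected by library totals (triangles).

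The ATF4 KO reads were then set beside those of other genes of like WT level. Genes were matched on mean normalised WT reads and not on the deposited values. Of 118 genes within 0.5 log2 units of Notch1, 84 (71.2%) had 0 reads in both ATF4 KO libraries, as Notch1 did. Of 180 genes near Psen2, 97 (53.9%) had none. Near Egfl7, 74 of 117 genes had at least 2 reads in an ATF4 KO library, as Egfl7 did, and near Hes6 74 of 115 did. A read number of 68 or more was less common near Ncstn, at 16 of 78 genes (20.5%).

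In the comparison of ATF4 KO with WT over all genes, Notch1 and Psen2 passed the threshold of 0.05 and were lower in ATF4 KO, and the other 3 did not pass. These are 2 of 5 genes, where 47.0% of all 1199 genes tested were called, 22.4% as lower and 24.6% as higher. A call for 2 of 5 genes is thus near the share over all genes. The difference (ATF4 KO minus WT, deposited log2 scale, limma) was -0.69 for Notch1 (SE 0.08, adjusted p = 0.00976), but voom on the reads put it at 0.23 with an adjusted p of 0.461. That of Psen2 was -1.78 (SE 0.09, adjusted p = 0.00236), and -1.01 with an adjusted p of 0.0617 by voom. A small constant is added to every count by voom. At 0 reads its ATF4 KO values are thus set by that constant and the depth scale, not by reads of the gene. Voom scaled by size factors moved the median over all genes to 1.25, and relative to that median Notch1 stood at -1.02 and Psen2 at -2.26. Over the 670 genes with a lowest value of 3, the limma median was -1.01, and relative to it Notch1 stood at 0.32 and Psen2 at -0.77. By voom 24.8% of 1183 genes and none of the 5 were called. With library totals in voom, where the median was -3.38, Notch1 and Psen2 were again called lower, as were 46.1% of all genes, while 0.845% were called higher.

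Both calls fell on genes with no ATF4 KO read, like most calls in the table. Of the 268 genes called lower, 257 had 0 reads in both ATF4 KO libraries, as did 283 of the 295 called higher. Among the 244 genes tested that had 0 ATF4 KO reads and a WT mean above 3, 236 (96.7%) were called lower. The selectin gene Sele, with 0 and 0 reads in ATF4 KO and 11 and 17 in WT, was called higher by 0.03 (limma, adjusted p = 0.00345). For such genes the difference is a function of the WT reads alone, and the plot of difference against WT level places Notch1 and Psen2 on 1 narrow curve with the other genes that lack ATF4 KO reads.

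**Figure D4:**
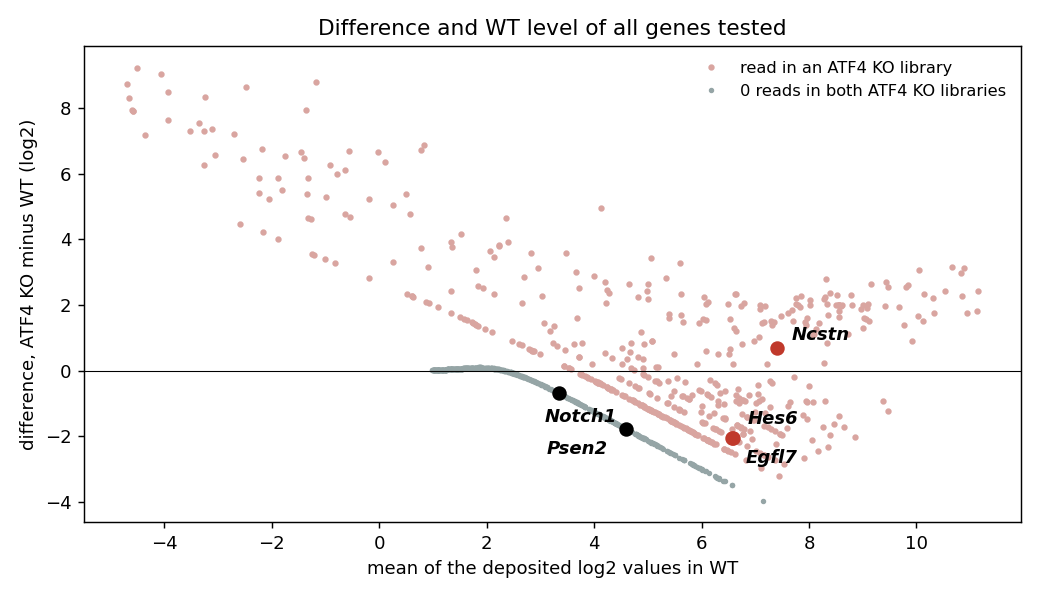
Difference in log2 value (ATF4 KO minus WT) against the mean WT value for all 1199 genes tested, in grey where both ATF4 KO libraries had 0 reads and pink otherwise. Notch1 and Psen2 (black) lie on the grey curve at -0.69 and -1.78 (voom put Notch1 at 0.23), and Egfl7 (-2.04) and Hes6 (-2.06) overlie each other.

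Egfl7 differed by -2.04 (SE 1.07, limma adjusted p = 0.228) and Hes6 by -2.06 (SE 1.05, limma adjusted p = 0.219), larger differences than those of Notch1 and Psen2 but with a wide spread between the ATF4 KO libraries. Their calls rested on which ATF4 KO library was used. Without ATF4 KO 1, all 5 genes were called lower, as were 36.9% of all genes, with Egfl7 at -3.28 and Hes6 at -0.86. Without ATF4 KO 2, 4 were called lower and Ncstn higher, against 37.6% and 34.4% of all genes, with Egfl7 at -0.80 and Hes6 at -3.26. The single ATF4 KO library left is then assumed to vary like WT.

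Ncstn differed by 0.70 (SE 1.67, limma adjusted p = 0.734). The sign of this difference followed the library: it was 2.62 without ATF4 KO 2 (limma adjusted p = 7.34e-05) and -1.22 without ATF4 KO 1 (limma adjusted p = 0.00227). Such a split was frequent. Of 514 genes with a recovered ATF4 KO read, 341 were read in 1 of the 2 libraries and 173 in both. At least 50 reads in one library and at most 1 in the other were found for 64 genes, 27 of them high in ATF4 KO 1, as Ncstn was, and 37 high in ATF4 KO 2. Of the 101 genes with at least 50 reads in either library, 11 had as many in both.

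**Figure D5:**
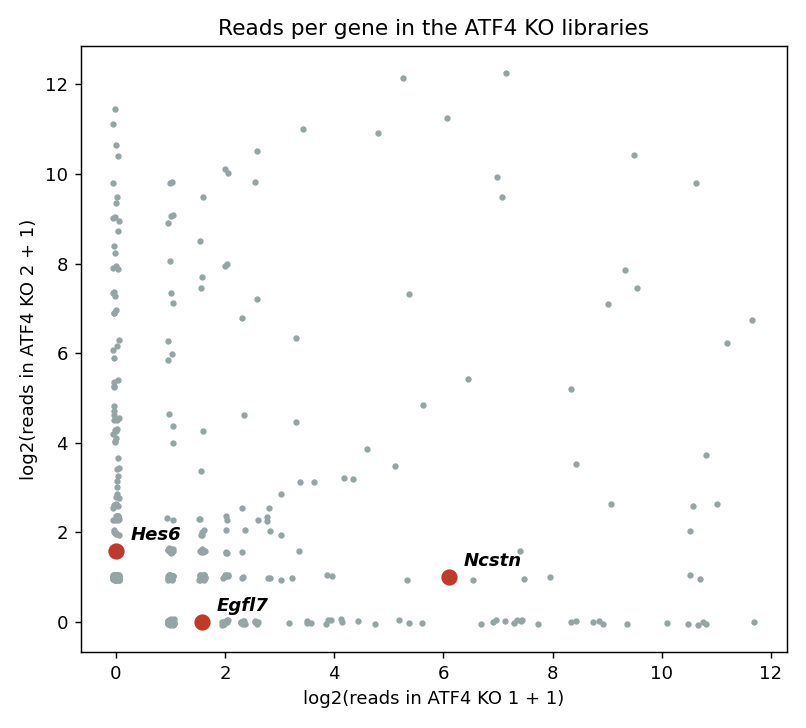
Reads of each gene with an ATF4 KO read in ATF4 KO 1 and ATF4 KO 2, as log2(reads + 1), with grey points moved at random by up to 0.06 so that equal values can be seen. Ncstn lies near the lower axis at 68 and 1 reads, Egfl7 at 2 and 0 and Hes6 at 0 and 2.

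The genes most like each of the 5 over the 4 deposited values, by Euclidean distance among 894 protein-coding candidates, were chosen on values that the ATF4 KO reads set in part. Rab23 and Ogfrl1 were nearest to Notch1 (0.00889 and 0.0720 log2 units), and Scly and Pea15a to Psen2 (0.0452 and 0.0620), all 4 with 0 ATF4 KO reads. Rrs1 and Usp21 were nearest to Egfl7 and had 2 and 0 ATF4 KO reads each. Nudt5 and Sdhc were nearest to Hes6, with 0 and 2 reads each. Ncstn had no close neighbour: Eif5b, a translation initiation factor, was 1.02 away with 252 and 1 reads in ATF4 KO, and Tmbim1 1.05 away with 178 and 1.

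Of 128 genes on lists of the wider pathway (receptors, ligands, gamma-secretase, sheddases, glycosylation, trafficking, nuclear complex, HES repressors, targets and other gamma-secretase substrates), 13 were in the table and 9 were tested. By limma 0 were called higher and 5 lower, where 24.6% and 22.4% of all genes tested were. The median difference was -1.78, against 0.02 over all genes tested and -1.01 over the 670 genes that reached 3 in 2 or more libraries. By voom with size factors 1 of the 9, Poglut2, was called lower. Of all 1183 genes in that fit, 24.8% were called in either direction, 68 lower and 225 higher. No ATF4 KO read was found for any of the 5 genes called by limma. Besides Notch1 and Psen2 they were Poglut2, Gata3 and Kyat1. Poglut2, which adds glucose to the EGF repeats of Notch, had 1050 and 923 WT reads and differed by -2.58 (limma adjusted p = 0.00258). Gata3, a Notch target and regulator of the T lineage, had 1036 and 555 WT reads and differed by -2.24 (limma adjusted p = 0.00710). Kyat1, a kynurenine aminotransferase that stood on the nuclear complex list although it is a metabolic enzyme, differed by -0.99 (limma adjusted p = 0.00347).

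At other points of the pathway there was little to compare. Il2ra, a Notch target in the T lineage, had 11 and 0 reads in ATF4 KO, against 22 and 8 in WT. Its difference of 5.22 did not pass the test (limma adjusted p = 0.233). Nrarp, a feedback inhibitor of Notch, and Epha4, a gamma-secretase substrate, had 0 ATF4 KO reads, against 3 and 1 WT reads each, and did not reach the lowest value for the test. With no filter both were called higher by 0.0026 (limma adjusted p = 3.87e-05). The ligand Dner and the substrate Erbb4 were listed at 0 in all libraries. The 13 genes together held 0.210% and 0.00631% of the recovered ATF4 KO reads, against 1.06% and 1.05% of the WT reads.

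Markers of the sorted cells and of other cells were read beside these genes. Of 15 LT-HSC markers, Slamf1 and Gfi1b were in the table. Both had 0 reads in ATF4 KO, against 362 and 186 for Slamf1 and 1579 and 1225 for Gfi1b in WT, and both were called lower (limma adjusted p = 0.0423 and 0.00286), although voom put Slamf1 at 0.04 (adjusted p = 0.952). Both progenitor markers in the table were read in all libraries. Cd34 had 9 and 8 reads in ATF4 KO, against 18288 and 15275 in WT. Cd48, whose protein is low on mouse LT-HSCs, had 2 and 2 reads in ATF4 KO, against 1983 and 2511 in WT. Neither passed the test (limma adjusted p = 0.186 for Cd34 and 0.198 for Cd48), which 47.0% of all genes tested passed. Of 6 myeloid markers, 3 were present, and they took 4.07% and 1.90% of ATF4 KO reads, against 0.183% and 0.219% of WT reads. Nearly all of the ATF4 KO myeloid reads were Fcer1g, an Fc receptor subunit, at 1569 and 901 reads in ATF4 KO, against 1083 and 982 in WT (limma adjusted p = 0.0564). Fcgr3 had 2 and 0 reads in ATF4 KO, against 627 and 665 in WT, and Cxcr2 had 0 and 0, against 133 and 160. None of the 3 was called by the main limma test, where 47.0% of all genes tested were. Their median difference of -0.25 was that of Cxcr2. The call of Fcer1g depended on the setting. Voom called it higher, by 9.25 with size factors (adjusted p = 0.0182) and by 4.65 with library totals (adjusted p = 0.026). Limma also called Fcer1g higher once genes had to reach 3 in 2 or more libraries (limma adjusted p = 0.0347). The same held when the prior had no trend (limma adjusted p = 0.0211). Limma did not call Fcer1g with no filter (adjusted p = 0.152) or with the replicate block (adjusted p = 0.272). Its limma difference was 2.84 when ATF4 KO 1 was left out and 3.42 when ATF4 KO 2 was. Of 11 endothelial markers only Sele was present, at 0 reads in ATF4 KO, against 11 and 17 in WT. With this marker alone, the part of endothelial cells in the WT level of Egfl7 could not be estimated. Of 6 T cell markers, 5 were present, with 11 and 0 reads in ATF4 KO, against 277 and 128 in WT. All 11 were reads of Il2ra, and the other 4 had no ATF4 KO read. By limma 1 of the 5 was called higher (Ctla4) and 0 lower, where 24.6% and 22.4% of all genes tested were. Ctla4 differed by 0.02, with 0 and 0 reads in ATF4 KO against 13 and 6 in WT. The median difference of 0.09 was that of Cd28, also without ATF4 KO reads. With 0 reads, both ATF4 KO values are set by the transform, so these differences do not show a rise. The parts of cell composition and of depth in the differences of the 5 genes were not tested.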

How the data were processed

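The submitters' processing notes name HISAT2 2.2.1, featureCounts, DESeq2 and GRCm38, without order or role. The authors deposited 1 log2 value per gene and library; the transform is not given in the sources used here. The table's incomplete last line was left out. Coordinates come from GENCODE M21 (GRCm38), sequences from RefSeq (GRCm38.p6).

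The deposited log2 values met the equations of a regularised logarithm, a negative binomial model that shrinks each library's term towards the mean of the gene (ridge weight 0.1645). Solving them gave the size factors and whole read numbers (met within 0.001) for 1912 of 1928 genes with values, all 5 described genes included. Read totals are therefore lower limits. The solving was checked on simulated reads passed through the same transform. Such a check cannot show that the deposited values came from this transform.

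The main test was limma 3.58.1 (R 4.3.3, statmod 1.5.0) on the deposited values with no pseudocount, with trend and robust estimation, over the 1199 genes that reached 1 in 2 or more libraries. The Benjamini-Hochberg adjustment was used, and an adjusted p under 0.05 was called. Expected reads are the mean normalised WT reads times the ATF4 KO size factors, or rescaled by the yield over other genes or by library totals. Intervals are exact 95% Poisson intervals, and 0 reads were given a limit of 3 over both libraries. Both cover counting error only. Computation used Python 3.11.15, numpy 2.4.6, scipy 1.17.1 and pandas 2.3.3.

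The named genes are the 5 described, the listed pathway and marker genes in the table, the 2 protein-coding genes closest to each in the 4 values, and annotated neighbours. Members and lists were chosen with earlier results of these data known. Alternatives covered the filter, the prior, a replicate block, each library left out, voom on the reads, the yield and the transcript length. Scaling by library totals was added after the data were seen.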

Additional observations from a re-analysis of the deposited data

How the results depend on the processing

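The count of genes called was 563 as reported and 1315 with no filter, 255 with a lowest value of 3, 291 with no trend in the prior and 293 with voom on the reads (225 higher and 68 lower). With library totals in voom it was 555 (10 higher and 545 lower), and without single libraries it ranged from 634 to 884. Notch1 and Psen2 were called lower under each of these except voom with size factors, where Notch1 turned to 0.23 and Psen2 was not called. At 0 reads the ATF4 KO values in voom are set by its added constant and the depth scale. Ncstn was 0.70 as reported, from -1.22 to 2.62 without single libraries, and -3.67 with voom and library totals. The cause was not tested.

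With the yield as the scale, the ATF4 KO reads over those expected were at most 0.845 for Notch1 and 0.359 for Psen2, and 1.54 for Ncstn. The genes behind the yield were chosen on values that ATF4 KO reads set in part. As reported, with size factors, the limits were 3.50 for Notch1 and 1.49 for Psen2. With library totals the values were at most 0.140 for Notch1 and 0.0596 for Psen2, 0.0109 for Egfl7, 0.0107 for Hes6 and 0.256 for Ncstn. With the longest transcript, WT reads per kilobase were 65.6 for Hes6, 54.3 for Egfl7, 49.1 for Ncstn, 13.7 for Psen2 and 1.24 for Notch1.

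With the replicate number as a block, 510 genes were called. The block changed no call of the 5 genes. The deviations of libraries of the same number had a correlation of -0.076 over all genes tested. With 2 libraries per genotype and many genes without ATF4 KO reads, this cannot show whether the numbers pair the samples. The depth of the ATF4 KO libraries limits all 5 genes: no more than 10.8 reads per gene were expected over both by the size factors.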
